A study of Mus musculus with 4 samples.

Results

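The expression of 10 genes that mark 2 kinds of lung fibroblast was followed through every annotated cell class of the mouse lung and through clusters of attached lung cells. Inmt, Npnt, Tcf21, Fgfr4 and Pdgfra form the alveolar set, and Pi16, Scara5, Lum, Dcn and Serpinf1 form the adventitial set. The genes were listed by name with earlier results of these data known, chiefly their contrast between the classes Fibroblast-2 and Fibroblast-1, so that contrast is given as a description. All 10 were found among the 19042 gene symbols that the multiplet and singlet lung tables share. The study deconvolved the transcriptomes of clusters of attached cells into the cell types they hold. Whole lungs of C57BL/6J mice, an inbred strain, were dissociated mechanically and enzymatically, with no genetic change or treatment named. Of the 2 lung libraries used here, 1 held multiplets (clusters of cells, 4729 barcodes) and 1 held singlets (single cells, 6084 barcodes in 13 annotated classes), both made with the droplet-based Chromium 3' v3 chemistry. The labels name no separate animals, no ages and no method of separating singlets from multiplets.

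The multiplet library held 66277622 unique molecular identifiers (UMIs, each a counted transcript molecule) with a median of 11934 per barcode. The singlet library held 56639425 UMIs with a median of 7896. A barcode sequence was present in both libraries in 2 cases. Each group was 1 library, so no test was possible and no p-value is given. Intervals are exact 95% intervals that cover counting error only. Higher and lower are used of ratios past 1.5-fold in either direction, without regard to their intervals. Levels are in CPM, the counts-per-million scale, from a gene's UMIs in a group divided by all UMIs of that group, and a ratio is the CPM of the first-named group over that of the other.

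Alveolar fibroblasts lie in the alveolar wall beside the epithelium, where they carry lipid droplets and supply growth factors to type II cells. Adventitial fibroblasts lie in the loose cuffs around bronchi and larger vessels and lay down collagen and proteoglycans. In the alveolar set, Tcf21 is a basic helix-loop-helix transcription factor of lung mesenchyme, Fgfr4 and Pdgfra are receptors for fibroblast and platelet-derived growth factors, Npnt (nephronectin) is a matrix ligand of integrin alpha 8 beta 1, and Inmt is an indolethylamine N-methyltransferase. In the adventitial set, Dcn (decorin) and Lum (lumican) are small leucine-rich proteoglycans that bind collagen fibrils, Serpinf1 encodes the secreted serpin PEDF, Scara5 is a ferritin receptor and Pi16 is a peptidase inhibitor family member.

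Windows of 4 members are shown because they differ in E-boxes, the CANNTG motif that basic helix-loop-helix factors such as Tcf21 bind. Each window is the 250 bases before a RefSeq transcript start on GRCm38.p6, given 5' to 3' on the gene's strand with E-boxes in capitals. That start need not be the start of the annotated gene. The Pi16 window lies wholly inside the annotated gene (29317680 to 29330593), and the Inmt, Fgfr4 and Serpinf1 windows overlap the starts of theirs. The Inmt window is chr6:55174991-55175240 on the minus strand, the Fgfr4 window is chr13:55152568-55152817 on the plus strand, the Pi16 window is chr17:29318632-29318881 on the plus strand and the Serpinf1 window is chr11:75422624-75422873 on the minus strand.
Inmt: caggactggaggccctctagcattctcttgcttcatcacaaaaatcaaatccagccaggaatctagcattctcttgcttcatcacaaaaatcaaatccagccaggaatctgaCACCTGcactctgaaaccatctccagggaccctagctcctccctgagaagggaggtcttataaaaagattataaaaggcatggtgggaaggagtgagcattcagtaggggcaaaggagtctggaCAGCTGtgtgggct
Fgfr4: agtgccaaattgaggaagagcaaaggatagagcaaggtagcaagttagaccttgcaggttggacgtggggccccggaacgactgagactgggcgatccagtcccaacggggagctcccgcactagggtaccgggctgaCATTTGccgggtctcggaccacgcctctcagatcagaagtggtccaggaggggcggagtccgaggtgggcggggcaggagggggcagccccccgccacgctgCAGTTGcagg
Pi16: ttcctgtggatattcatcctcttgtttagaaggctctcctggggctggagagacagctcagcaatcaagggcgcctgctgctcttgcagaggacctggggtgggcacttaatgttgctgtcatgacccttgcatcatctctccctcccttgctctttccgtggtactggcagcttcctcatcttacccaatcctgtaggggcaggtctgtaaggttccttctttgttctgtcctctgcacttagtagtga
Serpinf1: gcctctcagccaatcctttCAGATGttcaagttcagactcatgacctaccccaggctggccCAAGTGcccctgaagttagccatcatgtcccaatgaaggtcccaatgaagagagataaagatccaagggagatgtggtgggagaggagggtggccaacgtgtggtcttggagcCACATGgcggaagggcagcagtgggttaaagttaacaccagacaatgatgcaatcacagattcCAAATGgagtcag
These windows held 2 E-boxes for Inmt, 2 for Fgfr4, 0 for Pi16 and 4 for Serpinf1, and 66.2% of the 32851 windows in the table held at least 1. Of the Inmt E-boxes, 1 had the form CAGCTG, which was present in 13.0% of all windows. Both forms were searched on both strands, they overlap by construction, and a match is a description of letters and not a binding site. The table held 7 of the 10 members, in 8 windows, without Scara5, Lum and Dcn. The remaining 4 windows, of Npnt (2 starts), Tcf21 and Pdgfra, held between 0 and 2 E-boxes. Lum and Dcn are neighbours on chromosome 10 of GRCm38, where Dcn spans 97479609 to 97518143 and Lum spans 97565128 to 97572703, 46984 bases apart and on the same strand.

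The authors' 2 fibroblast classes differed in all 10 genes, with the adventitial set higher and the alveolar set lower in Fibroblast-2. Fibroblast-2 held 528 cells (8.68% of singlets, median 9781 UMIs) and Fibroblast-1 held 2964 cells (48.7% of singlets, median 6562 UMIs). Summed over each set, Fibroblast-2 had 12400.3 CPM of adventitial genes against 836 in Fibroblast-1, a ratio of 14.8 (interval 14.6 to 15.1). The alveolar sum was 3064 CPM in Fibroblast-2 and 10277 in Fibroblast-1, a ratio of 0.298 (interval 0.293 to 0.303). Beyond 1.5-fold, 11.3% of the 11456 genes with enough UMIs were higher in Fibroblast-2 and 15.3% were lower, and nothing is read from the members' 5 and 5, since this contrast chose them.

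Among the alveolar genes, the largest contrasts were those of the receptor Fgfr4 and the matrix ligand Npnt. Fgfr4 measured 4.04 CPM in Fibroblast-2 against 67.2 in Fibroblast-1 (ratio 0.0601, interval 0.0375 to 0.0913). Of its 22 UMIs in Fibroblast-2, 77.3% came from 10 cells, and without the 10 highest cells of each class the ratio was 0.0144. Npnt measured 217 CPM in Fibroblast-2 against 2486 in Fibroblast-1 (ratio 0.0874). Both genes were thus more than 10-fold lower in Fibroblast-2, whereas the other 3 alveolar genes differed less. Inmt measured 2200 CPM in Fibroblast-2 and 6021 in Fibroblast-1 (ratio 0.365). Tcf21 measured 255 CPM in Fibroblast-2 and 707 in Fibroblast-1 (ratio 0.3601). Pdgfra measured 388 CPM in Fibroblast-2 and 995 in Fibroblast-1 (ratio 0.390).

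Detection per cell followed the same split once every cell was thinned to 2000 UMIs to equalise depth. An Inmt UMI was found in 75.2% of Fibroblast-2 cells and 99.9% of Fibroblast-1 cells (88.8% and 99.9% unthinned), a Pdgfra UMI in 50.6% and 81.9% (88.8% and 98.0% unthinned), and a Tcf21 UMI in 36.7% and 66.1% (78.8% and 90.8% unthinned). Npnt was found in 21.4% of Fibroblast-2 cells and 96.5% of Fibroblast-1 cells (43.6% and 99.7% unthinned). Fgfr4 was found in 0.568% of Fibroblast-2 cells and 14.4% of Fibroblast-1 cells (2.84% and 35.1% unthinned). In 190 B cells, which should lack these genes and had a median of 3312 UMIs, the thinned shares were 15.8% for Inmt, 8.95% for Npnt, 7.37% for Pdgfra, 6.84% for Tcf21 and 1.05% for Fgfr4. The Fgfr4 share in Fibroblast-2 cells was therefore not above the B-cell share, which rested on 2 of 190 cells. In 14 of the B cells at least 9 alveolar UMIs remained after thinning, and a doublet caller marked 12 of these. They carried 92.4% of the alveolar UMIs of B cells, and the part of doublets in the B-cell shares was not tested. In type II pneumocytes Fgfr4 measured 0.432 CPM (interval 0.174 to 0.890), against 4.04 in Fibroblast-2 (interval 2.53 to 6.11).

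Among the adventitial genes, Pi16 and Scara5 separated the classes most, and Dcn separated them least. Pi16 measured 1025 CPM in Fibroblast-2 against 2.596 in Fibroblast-1 (ratio 395, interval 304 to 523). Scara5 measured 207.5 CPM in Fibroblast-2 against 1.16 in Fibroblast-1 (ratio 179, interval 121 to 278). Both genes were within counting range of the B-cell background in Fibroblast-1: a thinned share of 0.472% for Pi16 and 0.304% for Scara5, where 0 of 190 B cells allows up to 1.58%. Lum measured 531 CPM in Fibroblast-2 against 10.01 in Fibroblast-1 (ratio 53.0), and 77.3% of its Fibroblast-1 UMIs came from 10 cells. Without the 10 highest cells of each class the ratio was 194 for Lum and 366 for Scara5. Serpinf1 measured 552 CPM in Fibroblast-2 against 15.4 in Fibroblast-1 (ratio 35.8). Dcn measured 10085 CPM in Fibroblast-2 against 807 in Fibroblast-1 (ratio 12.5, interval 12.3 to 12.7). Without Dcn, the adventitial ratio was 79.3 in place of 14.8.

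After thinning, Dcn was the only adventitial gene found in nearly all Fibroblast-2 cells. It also had the highest level there, at 10085 CPM, against 207.5 (Scara5) to 1025 (Pi16) for the others. A lower level alone leaves fewer cells with a UMI at the thinned depth. The lower shares therefore cannot show that cells lacked the other genes. Dcn was found in 92.8% of Fibroblast-2 cells and 23.0% of Fibroblast-1 cells, against 6.84% of B cells (96.6%, 35.4% and 7.37% unthinned). Serpinf1 was found in 50.4% of Fibroblast-2 cells and 2.36% of Fibroblast-1 cells (78.98% and 7.89% unthinned), Pi16 in 45.3% and 0.472% (60.4% and 1.45% unthinned), Lum in 37.7% and 0.472% (53.2% and 1.45% unthinned), and Scara5 in 26.7% and 0.304% (54.4% and 0.709% unthinned). No UMI of these 4 genes was found in B cells.

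**Figure D1:**
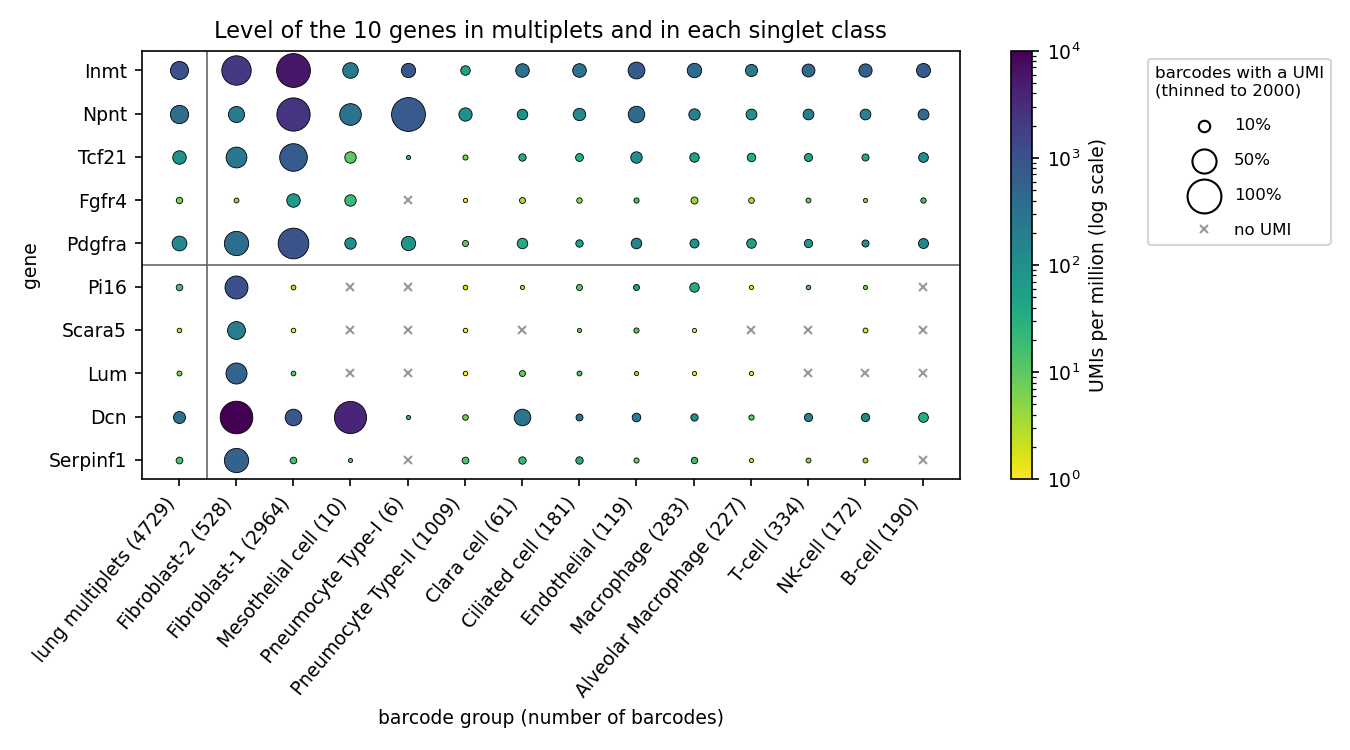
Levels of the 10 genes (rows, alveolar above the line and adventitial below) in lung multiplets and the 13 singlet classes (columns, number of barcodes in brackets); colour is CPM on a log scale and dot area grows with the percent of barcodes with a UMI after thinning to 2000 UMIs. The adventitial genes are dark and large in Fibroblast-2, Dcn is also high in the 10 mesothelial cells (3802 CPM), and Npnt is found in all 6 type I pneumocytes.

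Further genes listed for the 2 kinds of fibroblast mostly differed in the same direction, in the contrast that also chose the members. These lists were likewise made with earlier results of these data known, so their counts are a description. Of 22 further genes listed as alveolar, 19 were lower and 1 was higher in Fibroblast-2, and the median ratio was 0.268. Lowest were the amino acid transporter Slc7a10 (9.54 CPM in Fibroblast-2, 181 in Fibroblast-1, ratio 0.0526) and the secreted hedgehog-pathway protein Scube2 (ratio 0.0695). The exception was Gdf10, a secreted member of the TGF-beta superfamily, at 76.9 CPM in Fibroblast-2 and 29.8 in Fibroblast-1 (ratio 2.58), and Adh1 was next highest (ratio 1.28). Of 22 further genes listed as adventitial, 19 were higher and 0 were lower in Fibroblast-2, with a median ratio of 7.74. Cd248, the stromal surface protein endosialin, measured 165 CPM in Fibroblast-2 against 1.07 in Fibroblast-1 (ratio 155), and Ly6c1 had a ratio of 131. Pcolce2, a collagen processing enhancer (ratio 0.734), and Sfrp1, a secreted Wnt modulator (ratio 1.01), were the lowest of this list. Over all 11456 genes, 11.3% were higher and 15.3% were lower in Fibroblast-2, and the median log2 ratio was -0.07.

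Within the members' own families the contrast was uneven. Of 11 counted small leucine-rich proteoglycans, the family of Dcn and Lum, 8 were higher in Fibroblast-2 and 2 were lower. Aspn (asporin) had a ratio of 24.5, and Chad (chondroadherin), with a lone UMI in Fibroblast-1, had a ratio of 692 (interval 123 to 27508). Prelp (ratio 0.399) and Ogn (ratio 0.653) were lower in Fibroblast-2, and Bgn (biglycan) measured 1961 CPM in Fibroblast-2 and 1933 in Fibroblast-1. Among growth factor receptors, Fgfr1 (ratio 1.54) and Fgfr2 (ratio 1.64) were higher in Fibroblast-2, and Fgfr3 (ratio 0.520) was lower with Fgfr4. Pdgfrb was higher in Fibroblast-2 (88.4 CPM against 24.5 in Fibroblast-1, ratio 3.61), the opposite direction to Pdgfra. The ligands Fgf18 (ratio 8.59), Pdgfd (ratio 3.02) and Pdgfc (ratio 1.80) were higher in Fibroblast-2, and Fgf7 (ratio 0.552) and Fgf1 (ratio 0.519) were lower. Itga8, the alpha subunit of the integrin that binds Npnt, measured 141 CPM in Fibroblast-2 and 931 in Fibroblast-1 (ratio 0.151), and its partner subunit Itgb1 had a ratio of 0.699. The fibrillar collagens shared by both classes differed less, with ratios of 1.85 for Col1a1, 1.93 for Col1a2 and 1.89 for Col3a1. None of 8 genes known to respond to dissociation passed 1.5-fold.

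The genes most like each member over the 11 singlet classes with at least 50 cells were named by Pearson's r of log2(CPM + 10), a description over classes of 1 library. Npnt was most like Fgfr4 (r = 0.976), and Fgfr4 was most like Slc7a10 (r = 0.986). Tcf21 was most like the microfibril gene Mfap4 (r = 0.994), Pdgfra was most like Spon1 (r = 0.992), and Inmt was most like the complement gene C7 (r = 0.990). On the adventitial side, Scara5 was most like Ndufa4l2 and Entpd2 (r = 0.987 each), Lum was most like Penk, which encodes proenkephalin (r = 0.987), and Serpinf1 was most like the noncoding RNA Meg3 (r = 0.974). Pi16 (Aspn, r = 0.957) and Dcn (Clec3b, r = 0.928) had less close neighbours.

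Fibroblast-2 was not uniform in the members. The adventitial share of a cell's member UMIs had a median of 81.0% in Fibroblast-2, with a 5th percentile of 12.7% and a 95th percentile of 98.1%. That share was at or above 90% in 182 Fibroblast-2 cells (34.5%) and in 0 Fibroblast-1 cells, where the median was 0. It was under 10% in 24 Fibroblast-2 cells (4.55%) and in 2521 Fibroblast-1 cells (85.1%). After thinning, 75.8% of Fibroblast-2 cells held at least 2 UMIs of each set, against 15.7% of Fibroblast-1 cells. Without Dcn those shares were 48.5% and 0.506%. Over the 528 Fibroblast-2 cells, thinned to equal depth, Spearman's rho between the set sums was -0.24, and the most negative pair of genes was Inmt and Lum (rho = -0.41). The adventitial genes were positively related in pairs, up to 0.39 for Dcn and Serpinf1. Tcf21 and Pdgfra had no such relation to any adventitial gene in Fibroblast-2 (rho between 0.00 and 0.09).

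**Figure D2:**
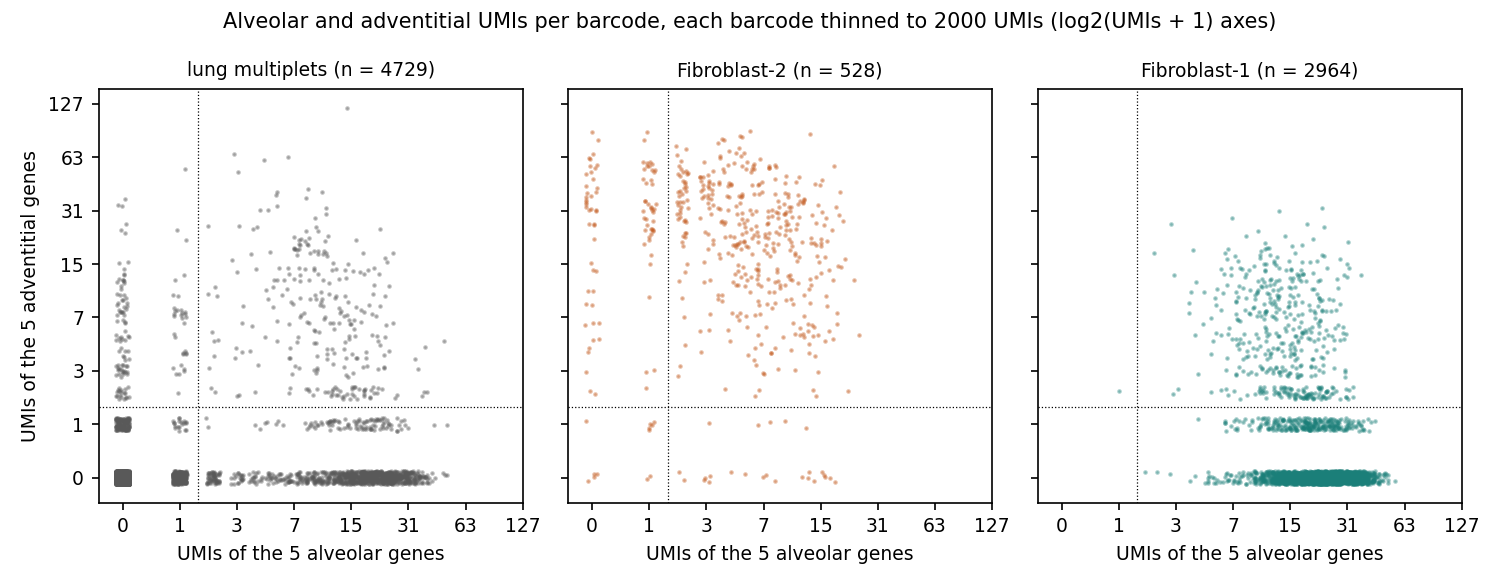
Summed UMIs of the 5 alveolar genes (x axis) and the 5 adventitial genes (y axis) in each lung multiplet, Fibroblast-2 cell and Fibroblast-1 cell, each barcode thinned to 2000 UMIs, on log2(UMIs + 1) axes with a small random shift. Dotted lines separate fewer than 2 UMIs from 2 or more: 75.8% of Fibroblast-2 cells lie in the upper right field, against 15.7% of Fibroblast-1 cells, and 5.82% of multiplets do.

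Splitting Fibroblast-2 by Pi16 separated a group with more of the other adventitial genes and less Inmt and Npnt, but with the same Tcf21 and Pdgfra. A Pi16 UMI was found in 239 thinned Fibroblast-2 cells and not in 289. Scara5 measured 309 CPM in Pi16-positive cells and 121 in Pi16-negative cells (ratio 2.54), Serpinf1 had a ratio of 1.91, Dcn had 1.60 and Lum had 1.56. Npnt measured 109 CPM in Pi16-positive cells and 310 in Pi16-negative cells (ratio 0.352), and Inmt had a ratio of 0.602. Tcf21 measured 258 CPM in Pi16-positive and 252 in Pi16-negative cells (ratio 1.02, interval 0.920 to 1.14), and Pdgfra had a ratio of 1.05 (interval 0.962 to 1.14). Of all 7145 genes counted in this split, 5.05% were higher and 6.54% lower beyond 1.5-fold, whereas 15 of 22 further adventitial genes were higher and 1 was lower, with a median ratio of 1.86. Dpp4, a surface peptidase, was highest at 83.0 CPM in Pi16-positive cells against 4.41 in Pi16-negative cells (ratio 18.8), and Ackr3, a chemokine scavenging receptor, had a ratio of 7.94. Of 20 counted further alveolar genes, 13 were lower and 0 were higher, with a median ratio of 0.593 and Cxcl14 lowest (ratio 0.197). The median log2 ratio over all genes of this split was -0.02. Surfactant and other type II cell transcripts were also higher in Pi16-positive cells (summed ratio 1.96). Of 8 counted myofibroblast markers 7 were lower in Pi16-positive cells, with a median ratio of 0.170 and a summed level of 547 CPM in Pi16-positive cells against 1620 in Pi16-negative cells. The part of either list in the result was not tested.

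Fibroblast-2 cells with little Dcn had, as a group, higher summed levels of contractile genes and of some pericyte markers. After thinning, 52 of 528 Fibroblast-2 cells held fewer than 2 Dcn UMIs. Acta2, smooth muscle actin, measured 1835 CPM in these cells and 85.9 in the other 476 (ratio 21.4), and Tagln had a ratio of 23.0. Hhip, a hedgehog-binding protein of lung myofibroblasts, measured 1268 CPM in low-Dcn cells and 104 in the rest (ratio 12.1). At least 5 myofibroblast UMIs after thinning were found in 18 of the 52. The smooth muscle genes Actg2 (ratio 163) and Myh11 (ratio 149) and the pericyte markers Rgs5 (ratio 239.6, interval 39.2 to 9839), Notch3 (ratio 26.0) and Cox4i2 (ratio 21.6) were higher too, and their part in the result was not tested. Of the other pericyte markers, Postn was higher (ratio 5.60), and Higd1b measured 3.88 CPM in low-Dcn cells and 0 in the rest. Pdgfrb stayed within 1.5-fold (ratio 1.235, interval 0.915 to 1.64). The intervals of Cspg4 (0.909 to 9.25) and Trpc6 (0.998 to 1131) reached below 1. Pi16 measured 60.2 CPM in low-Dcn cells and 1126 in the rest (ratio 0.0535), and Scara5 had a ratio of 0.0255. Npnt was 2.35-fold higher in the low-Dcn cells, while Pdgfra (ratio 0.865), Tcf21 (0.776) and Inmt (0.769) stayed within 1.5-fold. Leaving out cells with at least 5 myofibroblast UMIs after thinning left the Fibroblast-2 over Fibroblast-1 ratios at 14.6 for the adventitial and 0.314 for the alveolar set.

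In Fibroblast-1, Dcn marked a minority with lower Fgfr4, Tcf21 and Npnt and with hardly any Pi16 or Scara5. At least 2 Dcn UMIs were found in 452 thinned Fibroblast-1 cells (15.2%, median 10113.5 UMIs), and none in 2282 (77.0%, median 6124 UMIs). Lum measured 42.4 CPM in the Dcn-positive cells and 0.994 in the Dcn-negative cells (ratio 42.7, interval 25.2 to 77.7), and Serpinf1 had a ratio of 6.50. The Lum level rests on few cells: 10 cells carried 77.3% of the 216 Lum UMIs of Fibroblast-1. After thinning, 14 of 2964 Fibroblast-1 cells held a Lum UMI. Pi16 measured 3.23 CPM in the Dcn-positive and 2.52 in the Dcn-negative cells, an interval of the ratio from 0.655 to 2.39 that spans no difference, and Scara5 had a ratio of 2.32 (interval 0.922 to 5.62). Fgfr4 (ratio 0.159), Tcf21 (0.286), Npnt (0.445) and Pdgfra (0.519) were lower in the Dcn-positive cells, and Inmt (0.761) stayed within 1.5-fold. Of all 10737 genes counted in this split, 6.39% were higher and 12.9% lower. Of 22 further alveolar genes, 14 were lower and only Gdf10 was higher (ratio 3.94), with a median ratio of 0.612. Of 16 counted further adventitial genes, 10 were higher, led by Ly6a (ratio 12.2) and Il33 (ratio 8.95), and Ccl11 was lower (ratio 0.355), with a median ratio of 2.30. The median log2 ratio over all genes of this split was -0.11. The ligand Fgf18 measured 12.7 CPM in Dcn-positive and 0.199 in Dcn-negative cells (ratio 63.9, interval 20.8 to 318, on 59 and 3 UMIs), and Pdgfc had a ratio of 27.5. Scrublet, a doublet caller, marked 1 cell in the Dcn-positive and 1 in the Dcn-negative group. Of 8 genes known to respond to dissociation, 2 were higher and 0 were lower in the Dcn-positive cells (summed ratio 1.15). The Dcn-positive cells were also deeper before thinning. The part of dissociation or depth in the result was not tested.

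Outside the fibroblast classes the members were mostly found in a few cells of each class. Inmt levels were ordered as Fibroblast-1 (6021 CPM), Fibroblast-2 (2200 CPM), then type I pneumocytes (812 CPM), endothelial cells (754 CPM) and B cells (741 CPM), whose intervals overlap, with type II pneumocytes lowest at 50.05 CPM. In B cells, 76.4% of alveolar UMIs came from 10 of 190 cells. Of the 2592 cells outside the fibroblast classes, 87 (3.36%) held at least 9 alveolar UMIs after thinning, the 5th percentile of Fibroblast-1, and these carried 55.4% of the alveolar UMIs of those classes. Scrublet marked 55 of the 87, against 126 of all 6084 singlets. By the same limit, 142 of 528 Fibroblast-2 cells and 994 of 4729 multiplets (21.0%) reached the Fibroblast-1 range. Tcf21 and Pdgfra also had Fibroblast-1 and Fibroblast-2 on top, followed by B cells at 124 CPM for Tcf21 and 154 CPM for Pdgfra. Fgfr4 was highest in Fibroblast-1, although the wide interval of the 10 mesothelial cells (20.2 CPM, interval 2.44 to 72.9) overlaps it, and from there to alveolar macrophages (3.22 CPM) the intervals of neighbouring classes overlapped.

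Several members departed from this pattern. Npnt was found in all 6 type I pneumocytes (733 CPM, interval 516 to 1010) at a median of 7 UMIs, and in 14.1% of thinned type II pneumocytes (94.0 CPM), where the 10 highest cells carried 17.5% of its UMIs. The B-cell share was 8.95%, at a median depth of 3312 UMIs against 16009 in type II cells. In B cells, 10 cells carried 81.3% of the Npnt UMIs. Dcn was found in 10 of 10 mesothelial cells (3802 CPM, interval 3427 to 4205), although these cells held 0 UMIs of Pi16, Scara5 and Lum. A Dcn UMI was also found in 14 of 61 thinned cells of the Clara class (22.95%, 39.3% unthinned). Dcn measured 305 CPM there, and 10 cells carried 85.7% of its UMIs. Pi16 was found in 6.36% of thinned cells of the Macrophage class (34.3 CPM, 20.5% of cells unthinned), against 0 of 227 thinned alveolar macrophages, which allows up to 1.32% (0.881% unthinned). Serpinf1 was spread over type II pneumocytes at a low level (12.5 CPM), with a UMI in 15.8% of cells unthinned and 2.58% thinned, against 2.36% of thinned Fibroblast-1 cells, and with 11.8% of its UMIs in the 10 highest cells. Its level was higher in the smaller ciliated (33.4 CPM), Clara (21.4 CPM) and Macrophage (18.3 CPM) classes. There it was found in 3.32%, 3.28% and 2.12% of thinned cells, and 10 cells carried 75.8%, 96.0% and 79.2% of its UMIs. The adventitial genes otherwise had Fibroblast-2 far above the class ranked next, by 17.3-fold for Pi16 (over endothelial cells, where 1 cell held nearly all its UMIs), 19.7-fold for Scara5, 43.7-fold for Lum and 16.5-fold for Serpinf1. For Dcn that margin was 2.65-fold over the mesothelial class.

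All 10 genes were lower in multiplets than in singlets, the adventitial set more so than the alveolar set. The alveolar genes summed to 1644 CPM in multiplets against 4421 in singlets, a ratio of 0.372 (interval 0.369 to 0.374). The adventitial genes summed to 388 CPM in multiplets against 1565 in singlets, a ratio of 0.248 (interval 0.244 to 0.251). Of all 15098 genes counted, 13.8% were lower and 15.9% were higher in multiplets beyond 1.5-fold, against 10 of 10 members lower. In these sums fewer fibroblasts and less fibroblast RNA per barcode cannot be told apart.

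The alveolar genes spanned a narrow range of ratios, with Inmt nearest to the singlet level and Fgfr4 farthest. Inmt measured 1013 CPM in multiplets and 2614 in singlets (ratio 0.387). Npnt measured 393 CPM in multiplets and 1036 in singlets (ratio 0.380). Tcf21 (95.8 CPM in multiplets, 307 in singlets) and Pdgfra (135.5 CPM in multiplets, 436.5 in singlets) had nearly equal ratios of 0.312 and 0.310. The receptor Fgfr4 measured 6.59 CPM in multiplets and 27.5 in singlets (ratio 0.240, interval 0.216 to 0.267).

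The adventitial genes were spread more widely, and Dcn was the least reduced. Lum measured 5.78 CPM in multiplets and 55.7 in singlets (ratio 0.104, interval 0.0931 to 0.115). In multiplets 10 barcodes carried 53.0% of the Lum UMIs, and without the 10 highest barcodes of each library the ratio was 0.0584. Scara5 measured 2.43 CPM in multiplets and 21.1 in singlets (ratio 0.115, interval 0.0970 to 0.136). These were the lowest ratios of the 10 genes. Pi16 measured 15.5 CPM in multiplets and 103.5 in singlets (ratio 0.150), and Serpinf1 measured 13.8 in multiplets and 65.4 in singlets (ratio 0.211). Dcn measured 350 CPM in multiplets and 1319 in singlets (ratio 0.265). Without Dcn the adventitial ratio was 0.153 in place of 0.248. Adventitial UMIs were 19.1% of all member UMIs in multiplets and 26.2% in singlets, and 2.23% and 5.27% without Dcn. Set against UMIs of the collagens Col1a1, Col1a2 and Col3a1, the alveolar set was close in the libraries, at 173 per 100 collagen UMIs in multiplets and 182 in singlets, whereas the adventitial set stood at 40.8 in multiplets and 64.4 in singlets.

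**Figure D3:**
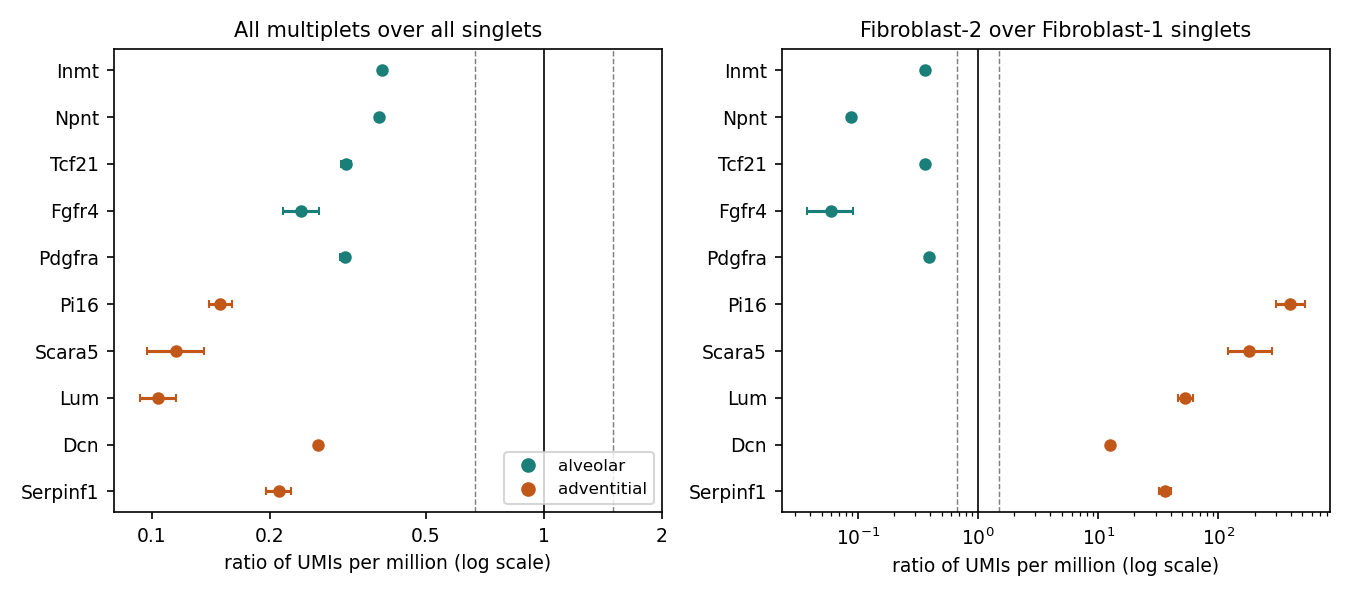
Ratio of CPM for each gene, in all multiplets over all singlets (left) and in Fibroblast-2 over Fibroblast-1 singlets (right), on log axes of different range; bars are exact 95% counting intervals and dashed lines mark 1.5-fold. All 10 genes lie left of the dashed line in multiplets, with Lum at 0.104 and Inmt at 0.387 at the ends.

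Further genes of the programmes were also lower in multiplets. Of the 22 further alveolar genes 21 were lower (median ratio 0.423), with Slc7a10 (ratio 0.246) and Scube2 (0.295) lowest. Plin2, a lipid droplet coat protein, was higher (334 CPM in multiplets, 203 in singlets, ratio 1.65), and Ces1d was next (0.6002). Of the 22 further adventitial genes 17 were lower (median ratio 0.434), with Entpd2 (0.180) and Ccl11 (0.181) lowest, and 3 were higher: Adh7 (1.87), Ly6c1 (1.86) and Ly6a (1.67). The summed ratio was 0.469 for the further alveolar and 0.509 for the further adventitial genes, so the lower ratio of the adventitial members was not seen in these lists. Of 8 genes common to fibroblasts, 7 were lower, and the median log2 ratio over all genes was -0.05. Summed markers of other cells were mostly higher in multiplets: neutrophil (ratio 10.2), interstitial macrophage (8.04), endothelial (6.14), mesothelial (3.46), alveolar macrophage (3.12) and airway (2.75), with type II cell markers at 0.714. Their part in the members' ratios was not tested.

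Multiplets with UMIs of both sets were a small part of all multiplets. In multiplets and in singlets alike, barcodes with both sets outnumbered those with the adventitial set only. After thinning to 2000 UMIs, 275 of 4729 multiplets (5.82%) held at least 2 UMIs of each set, 990 (20.9%) of the alveolar set only, 133 (2.81%) of the adventitial set only, and 3331 (70.4%) of neither. Among all 6084 singlets, 886 (14.6%) held both sets and 117 (1.92%) the adventitial set only. The alveolar set only was held by 2712 singlets (44.6%) and neither set by 2369 (38.9%). With Dcn left out, 45 multiplets (0.952%) held both sets and 17 (0.359%) the adventitial set only. The same rule of 2 UMIs of each set, with Dcn, was met by 75.8% of Fibroblast-2 singlets, so it does not separate 1 cell from 2. Alveolar-only multiplets carried a median of 86 alveolar UMIs at a median total of 9702 UMIs. Fibroblast-1 singlets of at least 5006 UMIs, the depth of the shallowest multiplet, carried a median of 79 at a median total of 7428. Scaled to each barcode's total, the order was reversed, with medians of 89.6 in alveolar-only multiplets and 106 in these singlets per 10k UMIs. Multiplets with both sets carried a median of 67 alveolar and 42 adventitial UMIs, whereas Fibroblast-2 singlets of at least 5006 UMIs carried 26 and 119. In the multiplets with both sets Dcn measured 4186 CPM, Pi16 measured 131 and Lum measured 72.2.

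Some multiplets with alveolar genes also held UMIs of the markers of other cell types. Among the 990 alveolar-only multiplets, 6.06% held at least 2 endothelial UMIs, against 0.0337% of Fibroblast-1 singlets. Type I cell markers were found in 7.37% of them against 1.11% of Fibroblast-1 singlets, and alveolar macrophage markers in 4.14% against 0 of 2964 Fibroblast-1 singlets, which allows up to 0.101%. These shares were still lower than over all multiplets, at 13.0% endothelial, 22.8% type I and 27.0% alveolar macrophage. Type II cell markers were found in 44.8% of alveolar-only multiplets and in 77.3% of Fibroblast-1 singlets, and airway markers in 59.8% and 36.8%, so these abundant surfactant and secretoglobin transcripts were common in singlets too. Over all multiplets the airway share was 62.4%. Over the whole libraries, the summed multiplet over singlet ratio was 6.14 for endothelial and 3.12 for alveolar macrophage markers. It was 2.75 for airway, 1.32 for type I and 0.714 for type II markers. The part of background RNA in these shares was not tested.

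**Figure D4:**
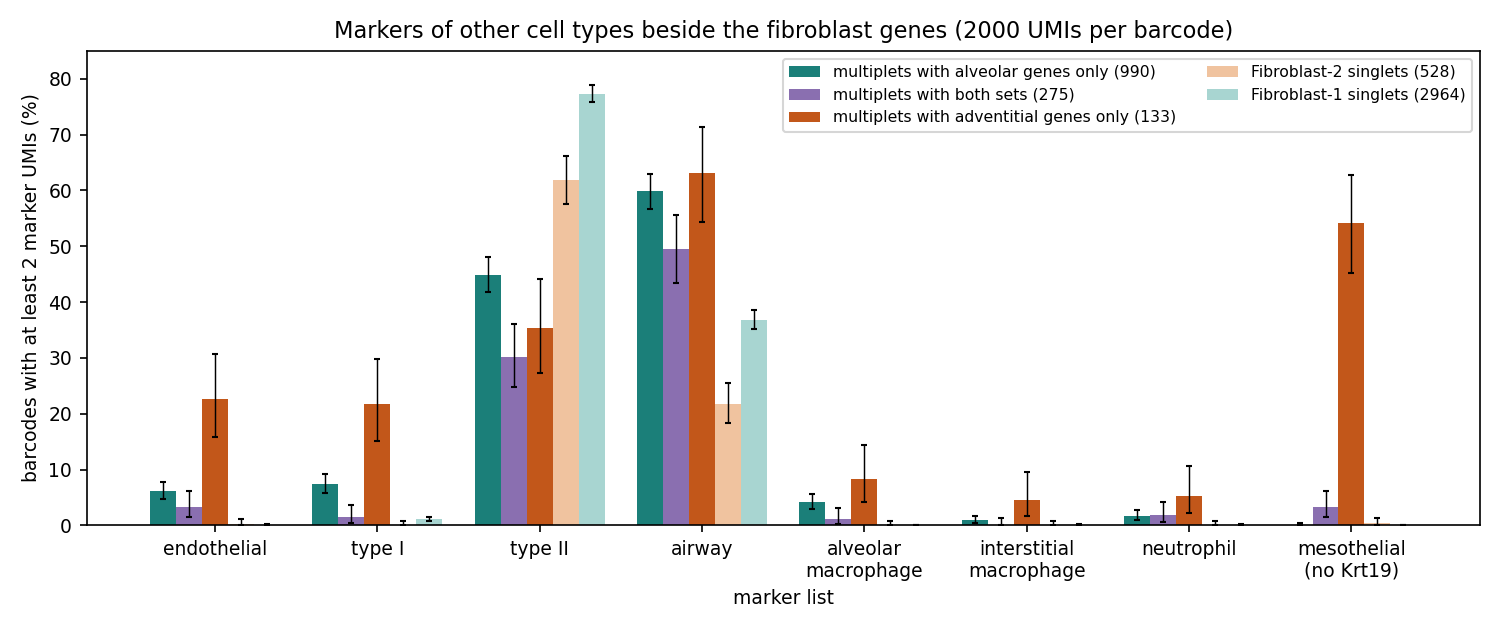
Percent of barcodes with at least 2 UMIs of a marker list after thinning to 2000 UMIs, in multiplets grouped by the fibroblast genes they hold and in fibroblast singlets; bars are exact 95% intervals. Endothelial markers reach 22.6% and mesothelial markers 54.1% of adventitial-only multiplets, and type II markers are most frequent in Fibroblast-1 singlets (77.3%).

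The adventitial-only multiplets carried mesothelial markers more often than not. Msln, Upk3b, Wt1 and Lrrn4, genes of the mesothelium that covers the lung, gave at least 2 UMIs in 72 of 133 adventitial-only multiplets (54.1%), in 0 of 990 alveolar-only, in 9 of 275 with both sets (3.27%) and in 15 of 3331 with neither (0.450%). In fibroblast singlets they did so in 0.379% of Fibroblast-2 and 0 of 2964 Fibroblast-1 cells. Krt19 was left out of this list, after its values were seen, because epithelia also express it; with it the share was 66.9%. In all, 96 multiplets (2.03%) held these markers and 20.4% of the Dcn UMIs of the library. In them Dcn measured 2701 CPM and was found in 88 of 96, while Lum measured 5.13 CPM, Serpinf1 measured 3.42 and Scara5 had 0 UMIs. Lum and Dcn, the neighbouring genes on chromosome 10, thus parted in these barcodes. Without mesothelial-marked barcodes in either library, the Dcn ratio of multiplets over singlets was 0.218 in place of 0.265, while that of Lum was 0.104 in both cases.

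Npnt accompanied Dcn in the mesothelial-marked multiplets. It measured 225 CPM and was found in 74 of 96 (77.1%), where Inmt was found in 15 and Tcf21 in 10. In the 87 of them with fewer than 2 alveolar UMIs after thinning, Npnt still measured 188 CPM against 7.59 for Inmt and 0.632 for Pdgfra. Npnt UMIs were also found in 7 of the 10 mesothelial singlets, with a median of 2.

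To follow the members away from fibroblasts, the 2778 multiplets with no UMI of Inmt, Tcf21 or Pdgfra were split by markers of other cells. Npnt measured 197 CPM with mesothelial markers and 37.9 without (ratio 5.20), 79.7 with type I markers and 27.7 without (ratio 2.88), and 53.8 with type II markers and 26.8 without (ratio 2.01). It measured 10.5 CPM with alveolar macrophage markers and 61.1 without. With airway markers Npnt measured 40.5 CPM, against 47.3 without (ratio 0.855). Among the epithelial lists Npnt was thus higher beside type I and type II markers in these multiplets, and not beside airway markers. In the singlets without Inmt, Tcf21 or Pdgfra UMIs its ratio was 2.04 with type I and 0.859 with airway markers. With type II markers the singlet ratio was 1.24 (interval 0.995 to 1.57), within 1.5-fold. Dcn measured 2707 CPM with mesothelial markers and 26.0 without (ratio 104, interval 96.8 to 112).

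Pi16 followed a different set of cells. It measured 47.8 CPM in the 287 multiplets with neutrophil markers (S100a8, S100a9, Mmp9, Retnlg, Csf3r) and 3.53 in the 2491 without (ratio 13.5, interval 10.8 to 17.1). A Pi16 UMI was found after thinning in 9.76% of those with neutrophil markers and 0.843% of those without, at median depths of 12426 and 12294 UMIs. The 10 highest barcodes carried 20.6% of the UMIs. With interstitial macrophage markers Pi16 measured 26.6 CPM, against 6.48 without (ratio 4.11). The singlets without Inmt, Tcf21 or Pdgfra UMIs showed the same order, with 101 CPM in 22 cells with neutrophil markers (interval 56.6 to 167) and 3.08 in 1638 cells without. Dcn measured 5.04 CPM in the neutrophil-marked multiplets, 129 in the others, and Serpinf1 measured 5.70 and 6.83. Serpinf1 measured 9.36 CPM with type I markers and 5.57 without (ratio 1.68), and 7.79 with type II markers and 5.02 without (ratio 1.55). In the singlets those ratios were 1.496 for type I and 3.71 for type II markers (interval 1.67 to 10.2). Multiplets with neither set after thinning held 40.8% of all Pi16 UMIs of the multiplet library and 38.7% of Serpinf1, but 1.31% of Lum.

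**Figure D5:**
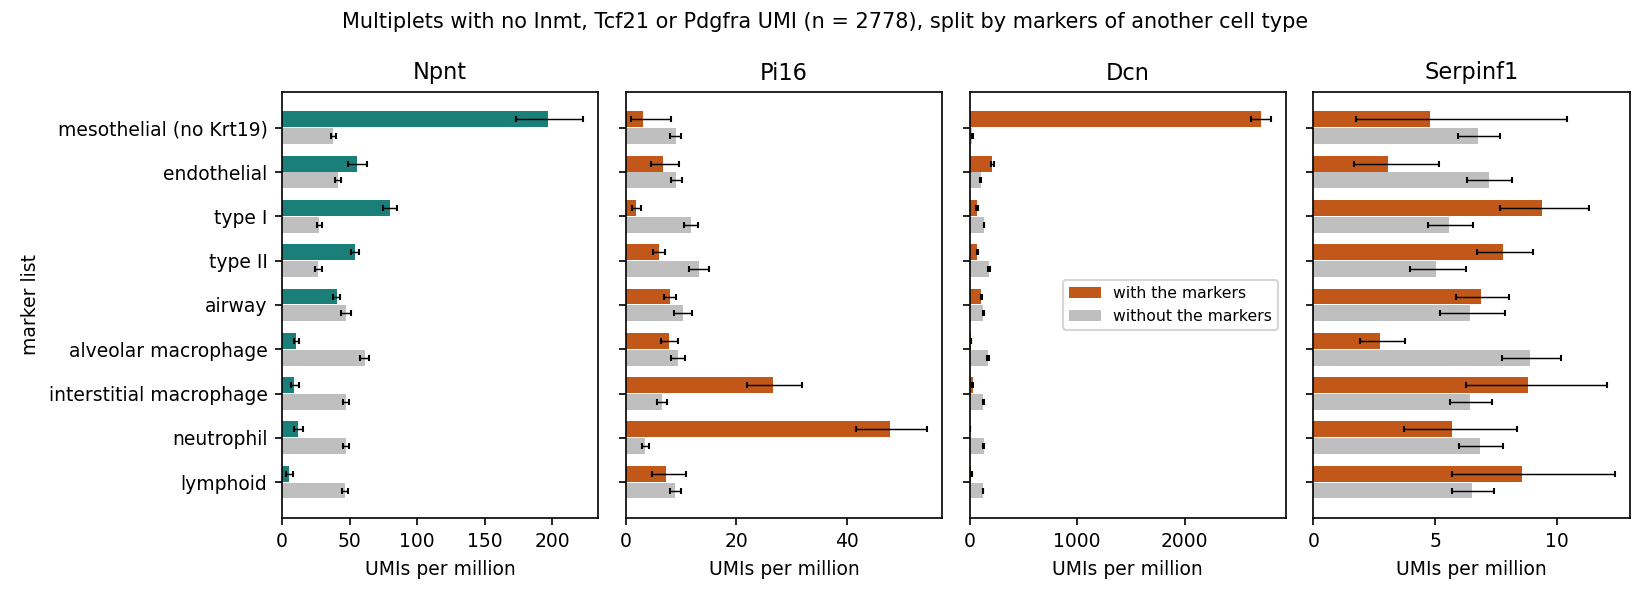
CPM of Npnt, Pi16, Dcn and Serpinf1 in the 2778 multiplets with no Inmt, Tcf21 or Pdgfra UMI, with (coloured) and without (grey) at least 2 UMIs of each marker list after thinning; bars are exact 95% counting intervals and each panel has its own x axis from 0. Pi16 stands out with neutrophil markers (47.8 CPM), Dcn with mesothelial markers (2707) and Npnt with mesothelial (197) and type I markers (79.7).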

How the data were processed

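Whole-lung singlets and multiplets of C57BL/6J mice were profiled, 1 library each. The authors deposited raw UMI counts per gene and barcode with a table naming each singlet's class. Cell Ranger 4.0.0 and the mm10 build are named per the submitters' processing notes. The small intestine libraries entered no comparison.

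From the counts, UMIs were summed per class, multiplet category or library and divided by the group's total (CPM). Members and lists were chosen with earlier results of these data known. Genes needed at least 50 UMIs in either group. Shares of barcodes were computed after thinning each barcode to 2000 UMIs (seed 1), and no barcode was shallower. Intervals of 95% are exact Poisson for CPM, Clopper-Pearson for shares and conditional exact for ratios. They cover counting error only. A share of 0 is given with the limit that 3 counts allow. Each group was 1 library, so no test between libraries was possible. The labels name no animals, so libraries could not be tied to any. Cells with and without Dcn or Pi16, and barcodes with and without other markers, are cells of 1 library, and groups so made carry no test either.

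All members are given in full. Further lists were named by the 2 genes at each end of their ratios, and any other gene of those lists that is named was chosen after its values were seen. The 3 most alike genes per member were ranked by Pearson's r of log2(CPM + 10) over 11 classes of at least 50 cells, among genes with at least 200 UMIs. Doublets were called with Scrublet in scanpy 1.11.5 and kept; it marked 126 of 6084 singlets. Alternatives were equal weighting of barcodes, TMM scaling (edgeR 4.0.16, scaling factors alone), depth-matched singlets, other thinning and UMI limits, and leaving out Dcn, doublets, the 10 barcodes of each group with the most UMIs of the gene or set, or mesothelial- or myofibroblast-marked barcodes. The counting code was checked on simulated counts. Python 3.11.15, numpy 2.4.6, scipy 1.17.1, pandas 2.3.3 and matplotlib 3.10.9 were used.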

Additional observations from a re-analysis of the deposited data

Results flagged for a closer look

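Members were also detected in the small intestine libraries, which entered no comparison and whose tables held 2 members for multiplets and 3 for singlets. Small intestine multiplets held 23 Npnt UMIs (0.454 CPM) and 85 Fgfr4 UMIs (1.68 CPM), above the 0.0592 CPM that a limit of 3 counts allows there. Small intestine singlets held 37 Npnt UMIs (0.775 CPM), 163 Fgfr4 UMIs (3.41 CPM) and 7 Pi16 UMIs (0.147 CPM), above the limit of 0.0628 CPM.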

How the results depend on the processing

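All 10 members were lower in multiplets under every alternative run, and no ratio changed direction. The alternatives that leave out myofibroblast-marked or mesothelial-marked barcodes, or Krt19, were chosen after seeing the data. For multiplets over singlets, the alveolar ratio (0.372) was 0.385 with barcodes weighted equally, 0.396 against depth-matched singlets, 0.367 without the 10 barcodes of each group that held the most UMIs of the set (the top barcodes) and 0.385 with TMM scaling. The adventitial ratio (0.248) was 0.300 with equal weights, 0.228 at matched depth, 0.236 without the top barcodes, 0.257 with TMM, 0.153 without Dcn, and 0.215 or, with Krt19 not used, 0.209 without mesothelial-marked barcodes. For Fibroblast-2 over Fibroblast-1, the alveolar ratio (0.298) was 0.274 with equal weights, 0.308 at matched depth, 0.293 without Scrublet doublets, 0.284 without the top barcodes and 0.314 without myofibroblast-marked cells. The adventitial ratio (14.8) was 21.9 with equal weights, 13.2 at matched depth, 15.4 without the top barcodes, 79.3 without Dcn and 14.6 without myofibroblast-marked cells. The adventitial percentage of member UMIs in multiplets (19.1%) was 16.3% with equal weights, 18.0% without the top barcodes, 2.23% without Dcn, and 15.9% or 16.2% without mesothelial-marked barcodes. In singlets (26.2%) it was 20.0%, 25.4%, 5.27% and 26.0% under the matching settings, 29.0% at matched depth and 26.3% without doublets. Barcodes with both sets, in multiplets, Fibroblast-2 and Fibroblast-1, were 4.04%, 53.2% and 10.6% at 1000 UMIs, 12.0%, 94.1% and 25.1% unthinned, 9.09%, 86.2% and 24.6% with at least 1 UMI of each set, 4.48%, 65.0% and 12.0% with at least 3, and 0.952%, 48.5% and 0.506% without Dcn. Apart from Dcn, where fewer genes enter by construction, the cause of these shifts was not tested. The levels of Pi16, Scara5 and Lum in Fibroblast-1 (2.596, 1.16 and 10.01 CPM) rest on small counts, of 56, 25 and 216 UMIs. No paired analysis was possible because each group was 1 library.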
